A study of Mus musculus with 6 samples.

Results

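The genes described here encode the sugar-transferring enzymes (glycosyltransferases) and the mannose-removing enzymes (mannosidases) that build and trim glycans in the Golgi apparatus. They were taken by name from the array annotation: every gene with a feature of exactly 1 symbol that began with B3gnt, B4galt, B3galt, Fut, St3gal, St6gal, St8sia, Galnt or Mgat and a digit, or with Man1 or Man2 and the letter a, b or c. This gave 74 genes of the 18820 measured through a feature of 1 symbol. B3gnt4, B4galt2, Galnt5 and St3gal6 shared all their features with other symbols and were not analysed here. The name of the set holds for 71 of the 74, since Man2b1 and Man2b2 encode lysosomal mannosidases and Man2c1 a cytosolic one, and these 3 are described apart.

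A secreted or membrane protein receives N-glycans in the endoplasmic reticulum (ER), and Golgi mannosidases then remove mannose so that GlcNAc transferases can add branches. Galactosyl-, fucosyl- and sialyltransferases extend and cap these branches. O-glycans start in the Golgi apparatus instead, when polypeptide GalNAc transferases (the Galnt family) place the first sugar on serine or threonine. The liver secretes most plasma glycoproteins, whose branches usually end in sialic acid, and the same apparatus also builds gangliosides, the sialic acid-bearing glycolipids.

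Expression was measured in primary hepatocytes of male wildtype C57BL/6J mice aged 8 to 10 weeks, cultured in 60 mm dishes. Every dish received an adenovirus at a multiplicity of infection of 100, was collected 24 h later and was read on its own Affymetrix Mouse Gene 1.1 ST array, so that the control also carried a virus. The control virus encoded green fluorescent protein (Ad-GFP) and the other the nuclear form of CREBH (Ad-nuclear CREBH, also called Ad-CREBH3 in the labels), a liver transcription factor that is normally freed from an ER-anchored precursor. With 3 dishes in each group, the comparison asks how forced expression of nuclear CREBH changed mRNA abundance.

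Values are log2 expression made with RMA, and a difference of 1 is a 2-fold change if the base is 2, which the range of the values fits but no source states. Creb3l3, the gene of CREBH, was at 8.24 ± 0.24 (SD, n = 3 dishes) in Ad-GFP and at 10.34 ± 0.32 (SD, n = 3) in Ad-nuclear CREBH dishes, with viral and mouse transcripts not separable. The median level of all genes was 5.24, and RMA gives no flag for background, so that fold changes of genes below it can be understated. Albumin and 6 other hepatocyte markers had a summed linear level of 29980 to 33150 in Ad-GFP and 33030 to 34360 in Ad-nuclear CREBH dishes, a sum in which bright genes weigh most. Among them Apoa1 rose by 0.74 and Cps1 fell by 1.21 (adjusted p = 5.63e-05 and 0.00165 from limma). More of the 7 fell in some other fits: 3 with array weights, a replicate block, loess normalization or without Ad-GFP replicate 1. Without both arrays numbered 1, 4 fell, and 1 rose in each of these fits. The 12 macrophage markers summed to 2714 to 3709 and to 1255 to 2660, carried by Cd68, while the Kupffer cell markers Clec4f, Cd163, Vsig4 and Timd4 were between 3.08 and 3.94 on the log2 scale in both groups. This sum lay lower in all 3 Ad-nuclear CREBH dishes, whereas 7 of the 12 markers had a log2 fold change above 0 (range -1.13 to 0.61). Of the 12, 2 fell, both above the median level, and 1 rose, Csf1r by 0.61 (adjusted p = 0.0254). No rise passed without Ad-GFP replicate 2 or 3 or Ad-nuclear CREBH replicate 1 or 3. No fall passed without Ad-GFP replicate 1 or 2 or Ad-nuclear CREBH replicate 3. Of 5 cholangiocyte markers Epcam rose by 1.74 (adjusted p = 0.000248) and Krt19 fell by 1.06 (adjusted p = 0.00409), and of 8 stellate cell markers, from -1.90 to 1.63, Reln fell (adjusted p = 0.000162). The part of these markers in the results below was not tested. In such bulk samples fewer cells of a type and less RNA per cell cannot be told apart. Whether the dishes came from separate animals is not stated, and p-values measure only the spread between dishes.

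Expression of the Golgi enzyme genes moved in both directions rather than together. Of the 16 genes that start mucin-type O-glycans 5 rose (31.2%, against 19.2% of all genes), above all Galnt3, and none fell, against 18.2% of all genes. Of the 6 genes of N-glycan trimming 4 fell, led by Man2a1 (66.7%, against 18.2% of all genes). All 6 were above the median level of all genes, where 29.2% of genes fell. Among the branching genes Mgat4b fell while Mgat2 and Mgat4f rose. The call of Mgat2 was lost in 7 of 16 alternative fits, and Mgat4f lay below the median level of all genes. The sialyltransferase genes split: St6gal1, St3gal1 and St3gal2 fell, whereas St3gal3, St3gal4, St3gal5 and St8sia1 rose. These groups are small, and their counts were not tested against those of all genes.

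At a Benjamini-Hochberg adjusted p under 0.05 from limma over all 18820 genes, 17 of the 74 genes rose (23%, against 19.2% of all genes) and 12 fell (16.2%, against 18.2%), 29 genes in either direction where 37.4% of all genes passed. These shares are close to those of all genes, so that the set as a whole did not stand out by its counts. The median log2 fold change was 0.12 over the 74 genes and 0.04 over all genes. For 22 genes the 3 Ad-nuclear CREBH dishes lay above all 3 Ad-GFP dishes and for 14 below them, where 26.2% and 23.1% of all genes did so, 49.4% in either direction. A log2 fold change of 1 or more in size accompanied 9 of the rises and 6 of the falls, as it did for 9.43% and 8.96% of all genes. After median centring of the arrays, 24 of the 74 rose and 11 fell, because centring shifted the whole distribution, with a median over all genes of 0.18 in place of 0.04. Of all 18820 genes, 4814 rises and 2852 falls were called in that setting. The study's methods ask for an unadjusted p under 0.001, a more than 2-fold change and an expression value over 300, without saying in which samples. With the last read here as a linear mean over 300 in at least 1 group, Galnt3, Galnt10, B3gnt3, St3gal4 and St3gal5 were up and St3gal1, St6gal1, Mgat4b, Man2a1 and Man2b1 down, where 4.91% and 3.1% of all genes met these thresholds. With both group means over 300, 1 gene was up and 2 were down.

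**Figure D1:**
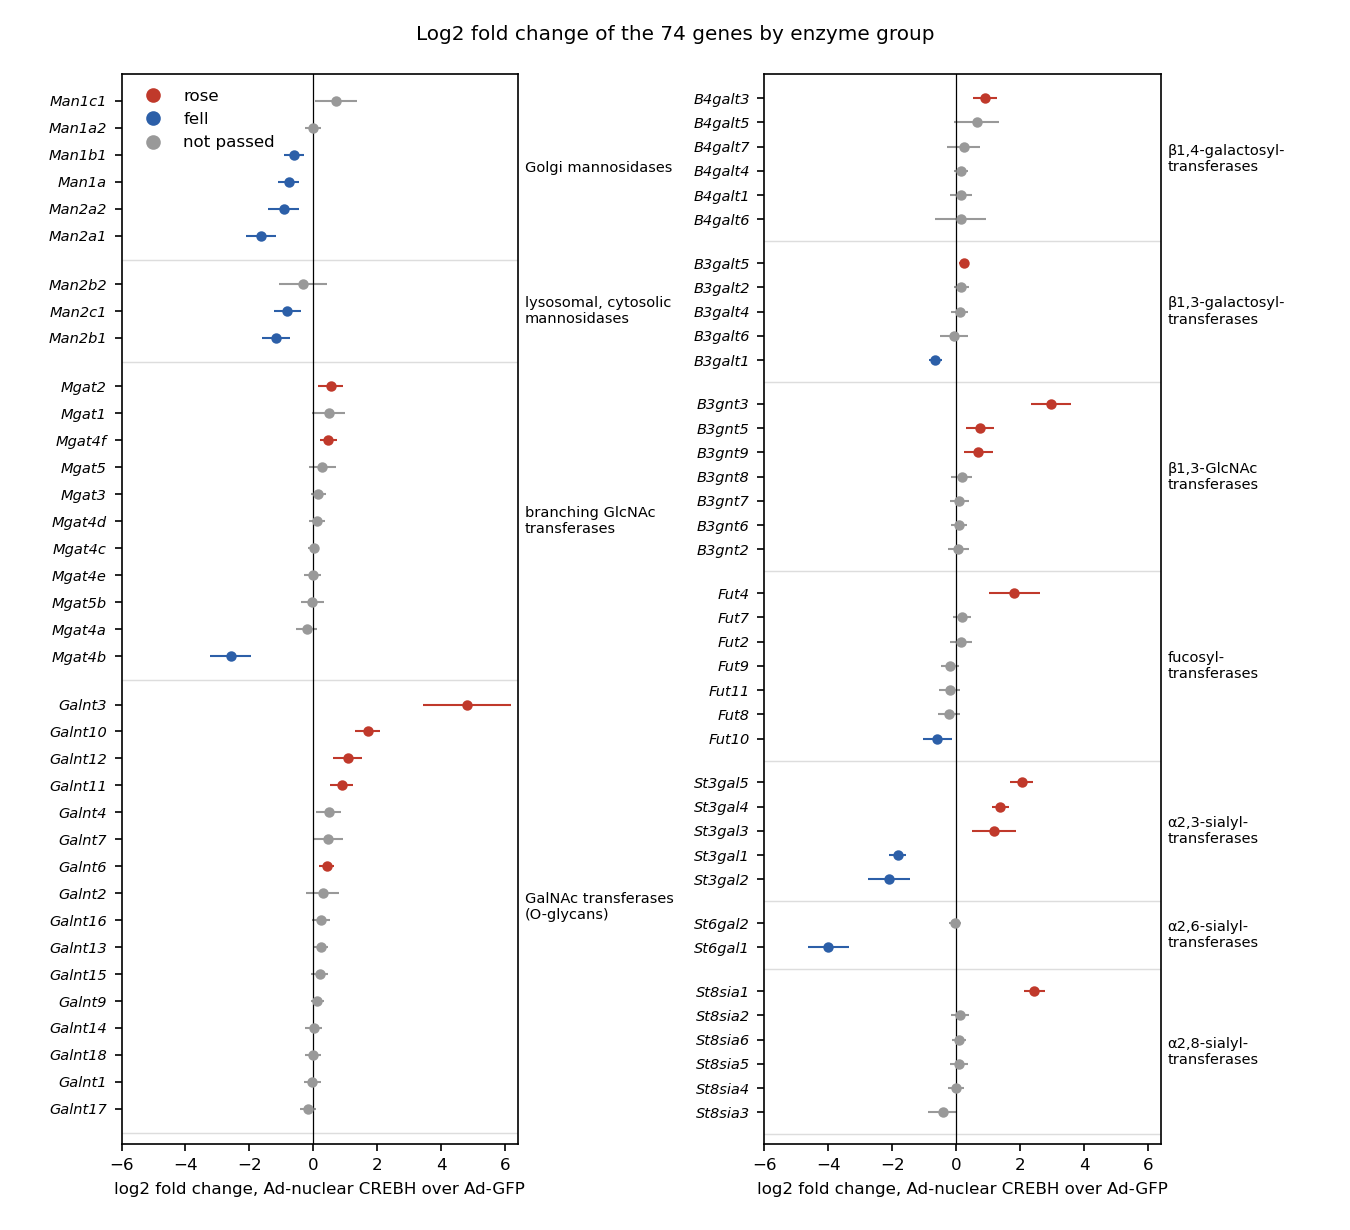
Log2 fold change of each of the 74 genes in primary hepatocytes, Ad-nuclear CREBH over Ad-GFP (n = 3 dishes each), with 95% confidence intervals from limma, ordered within enzyme groups. Red marks the 17 genes that rose, blue the 12 that fell and grey the 45 that did not pass, and the range runs from St6gal1 at -4.00 to Galnt3 at 4.79.

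Brighter genes made up most of the falls. Of the 35 genes above the median level, 9 rose and 10 fell (25.7% and 28.6%, against 29.3% and 29.2% of all genes above it). Of the 39 genes at or below it, 8 rose and 2 fell (20.5% and 5.13%, against 9.14% and 7.23% of all such genes). St8sia1, Fut4 and Galnt12 were the genes below the median level that rose with a log2 fold change of 1 or more, and both falls there, of B3galt1 and Fut10, were smaller than 1 in size.

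**Figure D2:**
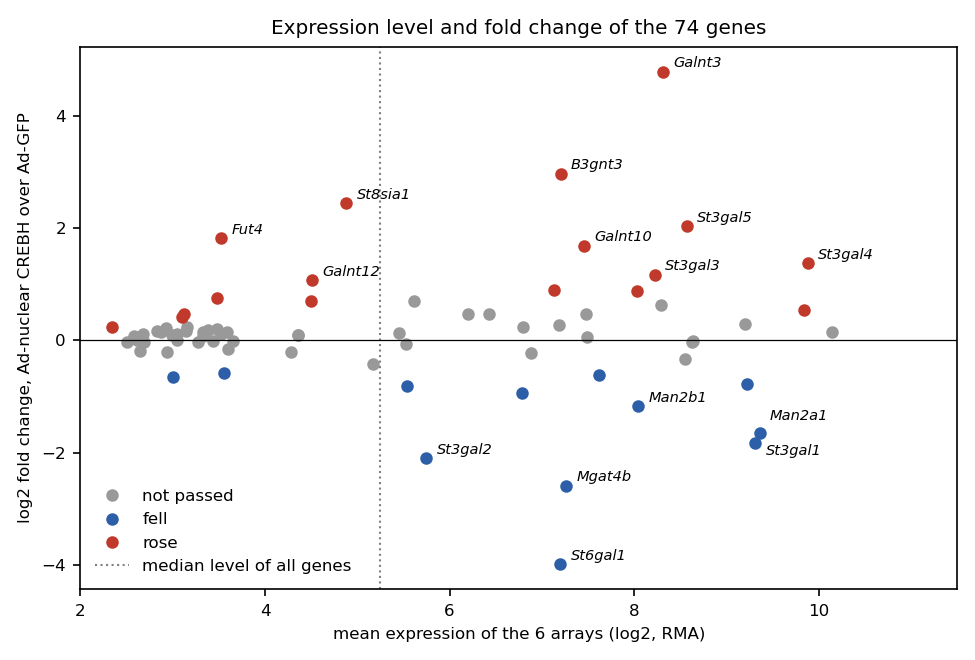
Mean expression of the 6 arrays (log2, horizontal axis) against the log2 fold change, Ad-nuclear CREBH over Ad-GFP (vertical axis), for the 74 genes, with those that passed at a log2 fold change of 1 or more in size named. The dotted line is the median level of all genes, 5.24, and left of it only Fut4, St8sia1 and Galnt12 carry a name.

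Mannosidases come first in N-glycan processing. Of the 6 genes of N-glycan trimming, all above the median level, 4 fell and none rose as deposited (66.7% and 0%, against 29.2% and 29.3% of all genes above it). However, Man1c1 passed as a rise after median centring and after quantile or loess normalization. Man2a1, which encodes mannosidase II of the medial Golgi, was at 9.73, 10.48 and 10.35 in Ad-GFP and at 8.32, 8.67 and 8.63 in Ad-nuclear CREBH dishes. It fell 3.13-fold (log2 fold change -1.65, SE 0.20, adjusted p = 0.000416), and the lowest Ad-GFP dish stayed above the highest Ad-nuclear CREBH dish. Its paralog Man2a2 fell as well, by 0.93 (adjusted p = 0.00865). Among the genes for the α1,2-mannosidases, which act before mannosidase II, Man1a fell by 0.77 (adjusted p = 0.00326) and Man1b1, whose enzyme also takes part in ER quality control, by 0.61 (adjusted p = 0.00928). Man1a2, another gene of this activity, was at 8.64, 8.63 and 8.67 in Ad-GFP and 8.56, 8.70 and 8.62 in Ad-nuclear CREBH dishes, so that the groups overlapped (log2 fold change -0.02, 95% interval -0.27 to 0.23, adjusted p = 0.915). Man1c1 was at 0.71 (adjusted p = 0.0907), and passed without Ad-nuclear CREBH replicate 1 (log2 fold change 1.05, adjusted p = 0.00377).

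Outside the Golgi apparatus, the gene of lysosomal α-mannosidase, Man2b1, was at 8.27, 8.83 and 8.80 in Ad-GFP and at 7.26, 7.48 and 7.65 in Ad-nuclear CREBH dishes. The groups did not overlap, and the gene fell 2.25-fold (log2 fold change -1.17, SE 0.19, adjusted p = 0.00159). The cytosolic Man2c1, which degrades free mannose chains, fell by 0.81 (adjusted p = 0.00751). Man2b2 was at 8.12, 9.04 and 8.99 in Ad-GFP and at 7.73, 8.73 and 8.69 in Ad-nuclear CREBH dishes. Its groups overlapped, and in both of them replicate 1 lay lowest (log2 fold change -0.33, adjusted p = 0.49). Without both arrays numbered 1 it passed as a fall (log2 fold change -0.30, adjusted p = 0.0041).

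Branching of N-glycans depends on enzymes of the Mgat family, which add GlcNAc at several positions. Of 11 genes, 2 rose and 1 fell (18.2% and 9.09%, against 19.2% and 18.2% of all genes), and 7 were at or below the median level. Mgat4b, for one of a pair of enzymes that add the β1,4 branch on the α1,3 arm, was at 7.88, 8.97 and 8.84 in Ad-GFP and at 5.87, 5.97 and 6.07 in Ad-nuclear CREBH dishes. No dish of one group reached the other group, and the gene fell 6.02-fold (log2 fold change -2.59, SE 0.28, adjusted p = 0.000186). The other gene of the pair, Mgat4a, was at -0.21 (adjusted p = 0.297).

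Mgat2, needed for the second antenna, rose by 0.54 (adjusted p = 0.0353), from a mean of 9.58 to 10.11. Its rise no longer passed in 5 of the 6 fits that left out 1 array, those without any one of the 3 Ad-GFP arrays or without Ad-nuclear CREBH replicate 2 or 3, where the adjusted p was 0.0505, 0.105, 0.0724, 0.133 and 0.125, nor after quantile (0.104) or loess normalization (0.0712). Mgat4f, at means of 2.89 and 3.35, rose by 0.47 (adjusted p = 0.0131). Mgat1, whose enzyme makes the first branch and so opens the way to all complex N-glycans, was at 0.47 (adjusted p = 0.14), but passed as a rise after centring, quantile and loess normalization (adjusted p = 0.0307, 0.029 and 0.0296). Mgat5, for the β1,6 branch, was at 7.28, 7.03 and 6.83 in Ad-GFP and 7.05, 7.44 and 7.49 in Ad-nuclear CREBH dishes, with overlapping groups (log2 fold change 0.28, adjusted p = 0.284). The other 5 genes (Mgat3, Mgat4c, Mgat4d, Mgat4e and Mgat5b) were between -0.03 and 0.15.

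O-glycan initiation held the largest rise of the set. Of 16 Galnt genes 5 rose and none fell as deposited (31.2% and 0%, against 19.2% and 18.2% of all genes). After quantile or loess normalization 7 rose and none fell, and after centring 9 and 0. Of the 16, 9 were at or below the median level. Galnt3, whose enzyme is known for shielding the hormone FGF23 from cleavage, was at 6.04, 4.42 and 7.29 in Ad-GFP and at 10.72, 10.72 and 10.70 in Ad-nuclear CREBH dishes. The Ad-GFP dishes spread over almost 3 units while the Ad-nuclear CREBH dishes nearly coincided, and the groups lay far apart. Galnt3 rose 27.7-fold (log2 fold change 4.79, SE 0.60, adjusted p = 0.000437), the fifth largest rise of all 18820 genes. This value was 4.04 when Ad-GFP replicate 2 was left out and 5.48 when Ad-GFP replicate 3 was.

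Galnt10, for an enzyme that prefers peptides already carrying GalNAc, was at 6.69, 6.65 and 6.51 in Ad-GFP and at 7.98, 8.45 and 8.48 in Ad-nuclear CREBH dishes. It rose 3.22-fold without overlap (log2 fold change 1.69, SE 0.17, adjusted p = 0.000152). Galnt12 was dim, at 3.92, 3.96 and 4.04 in Ad-GFP and at 4.64, 5.10 and 5.40 in Ad-nuclear CREBH dishes. It also rose without overlap (log2 fold change 1.07, SE 0.20, adjusted p = 0.0035). Galnt11, which glycosylates receptors of the LDL receptor family, rose by 0.88 (adjusted p = 0.00252) and Galnt6 by 0.41 (adjusted p = 0.0128). Galnt2, a broadly acting initiator with human variants linked to plasma lipids, was at 8.88, 9.18 and 9.12 in Ad-GFP and 8.80, 9.55 and 9.68 in Ad-nuclear CREBH dishes. Here the groups overlapped (log2 fold change 0.28, 95% interval -0.24 to 0.81, adjusted p = 0.382), although without Ad-nuclear CREBH replicate 1 the gene passed (0.56, adjusted p = 0.0155). Galnt1, another broadly acting initiator, was at -0.04 (adjusted p = 0.849). Galnt4 and Galnt7, whose enzymes act on partly glycosylated peptides, were at 0.48 and 0.47 (adjusted p = 0.0605 and 0.101). Both passed after centring, quantile or loess normalization, Galnt4 also without Ad-GFP replicate 3 (0.0463) and Galnt7 without Ad-nuclear CREBH replicate 1 (0.035). The other 7 genes lay between -0.16 and 0.24.

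Enzymes that add β1,3-linked GlcNAc lengthen chains. Of 7 B3gnt genes 3 rose and none fell (42.9% and 0%, against 19.2% and 18.2% of all genes). B3gnt3, which extends core 1 O-glycans and thereby forms sites for sulfated Lewis-type caps, was at 6.17, 5.30 and 5.68 in Ad-GFP and at 8.24, 8.98 and 8.85 in Ad-nuclear CREBH dishes. It rose 7.85-fold with a gap of about 2 units between the groups (log2 fold change 2.97, SE 0.27, adjusted p = 9.02e-05). B3gnt5, the enzyme that begins lacto-series glycolipids, rose by 0.75 (adjusted p = 0.0142; 0.0505 without Ad-GFP replicate 3). B3gnt9 rose by 0.69 (adjusted p = 0.0261), but did not pass in 4 of the 6 fits that left out 1 array. The adjusted p was 0.095 or 0.0691 when Ad-GFP replicate 2 or 3 was left out and 0.0783 or 0.0588 when Ad-nuclear CREBH replicate 2 or 3 was. B3gnt2, the main enzyme for polylactosamine chains, was at 7.52, 7.55 and 7.29 in Ad-GFP and 7.56, 7.42 and 7.59 in Ad-nuclear CREBH dishes, with overlapping groups (log2 fold change 0.07, adjusted p = 0.746).

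Galactose is added to these chains by the B4galt and B3galt enzymes. Of 6 B4galt genes 1 rose (16.7%, against 19.2% of all genes). This was B4galt3, whose enzyme galactosylates N-glycans, with a rise of 0.90 from 6.69 ± 0.18 to 7.58 ± 0.19 (SD, n = 3, adjusted p = 0.00296). B4galt1, the leading enzyme of this step, was at 9.73, 10.29 and 10.21 in Ad-GFP and 10.26, 10.24 and 10.16 in Ad-nuclear CREBH dishes. The groups overlapped, and apart from the first Ad-GFP dish all values lay close together (log2 fold change 0.14, adjusted p = 0.519). The lactosylceramide synthases B4galt5 and B4galt6 were at 0.63 (adjusted p = 0.151) and 0.14 (adjusted p = 0.804), and B4galt7, which acts in the linker of proteoglycans, was at 0.23 (adjusted p = 0.473). Leaving out Ad-nuclear CREBH replicate 1 made B4galt5 pass as a rise (log2 fold change 0.96, adjusted p = 0.0209), as centring did (0.0472), and leaving out Ad-GFP replicate 1 made B4galt7 pass (0.48, adjusted p = 0.0202). Of 5 B3galt genes, B3galt5 rose by 0.25 (adjusted p = 0.0259) and B3galt1 fell by 0.65 (adjusted p = 0.000545), both with means under 3.4 in either group. Each is 20% of the 5, against 19.2% and 18.2% of all genes. The rise of B3galt5 did not pass after quantile or loess normalization (adjusted p = 0.0656 and 0.149), nor in 5 of the 6 fits that left out 1 array, that without Ad-GFP replicate 2 being the exception (adjusted p = 0.0525 to 0.0977 in the 5). B3galt6, the brightest of them, which also builds the proteoglycan linker, was at 5.39, 5.77 and 5.53 in Ad-GFP and 5.38, 5.82 and 5.30 in Ad-nuclear CREBH dishes, with overlap (log2 fold change -0.06, adjusted p = 0.847).

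Promoters are shown for genes that rose and held a match to the DNA motif of CREB-type factors, and for Galnt3, the largest rise. RefSeq windows of the 250 bases before a transcript start were found for 55 of the 74 genes, 75 windows in all (build GRCm38.p6). They were searched on both strands for TGACGT, the core of the cAMP response element (CRE); for the full element TGACGTCA and for TGACGTG, a motif of the unfolded protein response, which both contain that core; and for the ER stress elements known as ERSE-II and ERSE. The CRE core was in a window of 5 of the 55 genes (9.09%), against 1337 of 14739 genes with a promoter (9.07%), so that the set held it as often as other genes did. It occurred in 3 of the 15 genes that rose and had a window (20%, against 12.7% of all genes that rose), namely B3gnt5, B4galt3 and Galnt11, and in 1 of 7 that fell (14.3%, against 9.27%), Man1b1. The fifth gene, St8sia4, did not pass. B4galt3 and Galnt11 held the full element, found in 3.64% of the 55 genes and 2.39% of all, and B3gnt5 the TGACGTG form, in 1.82% and 2.14%. Neither ER stress element was in a window of the 55 genes, against 0.0475% and 0.129% of all genes. Capitals mark the CRE core or the full element, which in B3gnt5 reads on the other strand; the window of Galnt3 (chr2:66124794-66125043, minus strand) had none and is all in lower case.
B4galt3 (chr1:171270078-171270327, plus strand): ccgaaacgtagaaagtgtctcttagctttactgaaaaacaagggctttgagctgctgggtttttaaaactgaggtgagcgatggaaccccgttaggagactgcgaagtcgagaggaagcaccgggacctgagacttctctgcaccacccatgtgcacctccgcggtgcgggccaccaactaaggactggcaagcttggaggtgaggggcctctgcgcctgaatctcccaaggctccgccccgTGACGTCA
Galnt11 (chr5:25222622-25222871, plus strand): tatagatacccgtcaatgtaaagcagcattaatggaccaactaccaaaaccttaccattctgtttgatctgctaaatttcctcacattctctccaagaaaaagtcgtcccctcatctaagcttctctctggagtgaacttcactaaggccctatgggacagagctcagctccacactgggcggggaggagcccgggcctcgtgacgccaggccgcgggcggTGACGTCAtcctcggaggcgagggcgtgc
B3gnt5 (chr16:19759984-19760233, plus strand): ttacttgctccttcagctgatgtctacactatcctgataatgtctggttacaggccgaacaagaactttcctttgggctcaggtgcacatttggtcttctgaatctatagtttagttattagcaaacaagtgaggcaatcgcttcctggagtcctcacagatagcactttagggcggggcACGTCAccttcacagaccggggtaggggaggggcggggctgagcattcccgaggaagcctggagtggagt
Galnt3 (chr2:66124794-66125043, minus strand): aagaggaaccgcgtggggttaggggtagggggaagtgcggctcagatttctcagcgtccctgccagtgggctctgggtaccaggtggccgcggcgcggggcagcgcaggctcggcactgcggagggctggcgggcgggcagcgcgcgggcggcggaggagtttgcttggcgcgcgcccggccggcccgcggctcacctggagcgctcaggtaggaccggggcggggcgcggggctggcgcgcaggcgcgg

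In the B4galt3 window the match took up the 8 bases next to the start, in that of Galnt11 the bases 29 to 22 before it and in that of B3gnt5 the bases 70 to 65. A second window of Galnt11, which is not shown, held the core at bases 249 to 244. A match describes letters only, and binding was not measured.

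Fucosyltransferase genes were mostly dim, with 6 of 7 at or below the median level, and 1 rose and 1 fell (14.3% each, against 19.2% and 18.2% of all genes). Fut4, which makes the Lewis X structure, was at 2.55, 2.68 and 2.62 in Ad-GFP and at 3.60, 5.23 and 4.47 in Ad-nuclear CREBH dishes. All 3 Ad-nuclear CREBH dishes lay above the Ad-GFP dishes but differed among themselves by more than 1.5 units, and all 3 stayed below the median level of all genes. The log2 fold change was 1.82 (SE 0.35, adjusted p = 0.00398), and between 1.42 and 2.24 with 1 array left out. Fut10 fell by 0.59 with overlapping groups (adjusted p = 0.0459), a call that was lost after median centring (0.0641) and in 5 of the 6 fits that left out 1 array (0.066 to 0.142; it passed without Ad-GFP replicate 1). Fut8, the enzyme of core fucose on N-glycans, was the brightest, at 7.15, 6.97 and 6.87 in Ad-GFP and 6.63, 6.83 and 6.87 in Ad-nuclear CREBH dishes. Its Ad-nuclear CREBH dishes lay lower by a small margin, and the difference did not pass (log2 fold change -0.23, 95% interval -0.57 to 0.12, adjusted p = 0.287). The other 4 genes were between -0.21 and 0.18.

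Sialyltransferases cap finished chains, and here all 5 measured genes of the α2,3 family passed, St3gal3 not in every fit. These genes were above the median level, where 29.3% of all genes rose and 29.2% fell. St6gal1, which places α2,6-linked sialic acid on N-glycans of plasma proteins, showed the largest fall of the set. It was at 8.52, 9.60 and 9.47 in Ad-GFP and at 4.97, 5.26 and 5.37 in Ad-nuclear CREBH dishes. Expression thus went from well above the median level of all genes to about that level, with no overlap. St6gal1 fell 15.9-fold (log2 fold change -4.00, SE 0.28, adjusted p = 3.35e-05), the 56th largest fall of all genes. St6gal2 was dim on every array, at 2.56, 2.46 and 2.53 in Ad-GFP and 2.39, 2.60 and 2.46 in Ad-nuclear CREBH dishes, with overlap (log2 fold change -0.03, adjusted p = 0.81).

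Of the 5 α2,3-sialyltransferase genes 3 rose and 2 fell, under every scaling tried. All 5 were above the median level, where 29.3% of all genes rose and 29.2% fell. The falls were those of St3gal1 and St3gal2, whose enzymes can sialylate galactose of core 1 O-glycans but are not limited to them. St3gal1 was at 10.23, 10.30 and 10.15 in Ad-GFP and at 8.27, 8.53 and 8.40 in Ad-nuclear CREBH dishes, a tight and separate pair of groups. It fell 3.55-fold (log2 fold change -1.83, SE 0.11, adjusted p = 2.31e-05). St3gal2 was at 6.09, 7.18 and 7.13 in Ad-GFP and at 4.66, 4.65 and 4.80 in Ad-nuclear CREBH dishes. The second group lay below the median level of all genes on all 3 arrays, and the gene fell 4.27-fold (log2 fold change -2.10, SE 0.29, adjusted p = 0.000686).

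The 3 rises concerned enzymes with roles in N-glycans or glycolipids, though the acceptors of the α2,3 enzymes overlap. St3gal5, which makes GM3, the parent of most gangliosides, was at 7.42, 7.66 and 7.57 in Ad-GFP and at 9.32, 9.76 and 9.69 in Ad-nuclear CREBH dishes. The groups stood well apart, and the gene rose 4.12-fold (log2 fold change 2.04, SE 0.15, adjusted p = 3.98e-05). St3gal4, known for α2,3-sialic acid on plasma glycoproteins, was at 9.05, 9.23 and 9.31 in Ad-GFP and at 10.42, 10.65 and 10.64 in Ad-nuclear CREBH dishes. It rose 2.6-fold, again without overlap (log2 fold change 1.38, SE 0.12, adjusted p = 6.56e-05). St3gal3 was at 7.11, 7.97 and 7.83 in Ad-GFP and at 8.24, 9.10 and 9.09 in Ad-nuclear CREBH dishes. Replicate 1 was lower than the other dishes in both groups and the gap between the groups was narrow, and St3gal3 rose 2.26-fold (log2 fold change 1.17, SE 0.30, adjusted p = 0.0154). This call was lost without Ad-nuclear CREBH replicate 2 (adjusted p = 0.0653) or 3 (adjusted p = 0.0632).

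Among the 6 α2,8-sialyltransferase genes, all of them at or below the median level, 1 rose (16.7%, against 9.14% of all such genes). St8sia1, for GD3 synthase, which adds a second sialic acid to GM3, was at 3.68, 3.56 and 3.73 in Ad-GFP and at 6.20, 5.98 and 6.13 in Ad-nuclear CREBH dishes. The gene moved from below to above the median level of all genes with little spread in either group, and rose 5.45-fold (log2 fold change 2.45, SE 0.14, adjusted p = 2.05e-05). St8sia3 was the brightest of the rest, at 5.48, 5.50 and 5.17 in Ad-GFP and 4.61, 5.09 and 5.18 in Ad-nuclear CREBH dishes, and its groups overlapped slightly (log2 fold change -0.42, adjusted p = 0.132). St8sia2 and St8sia4, which build polysialic acid, were at 0.12 and -0.01, and St8sia5 and St8sia6 at 0.09 each.

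**Figure D3:**
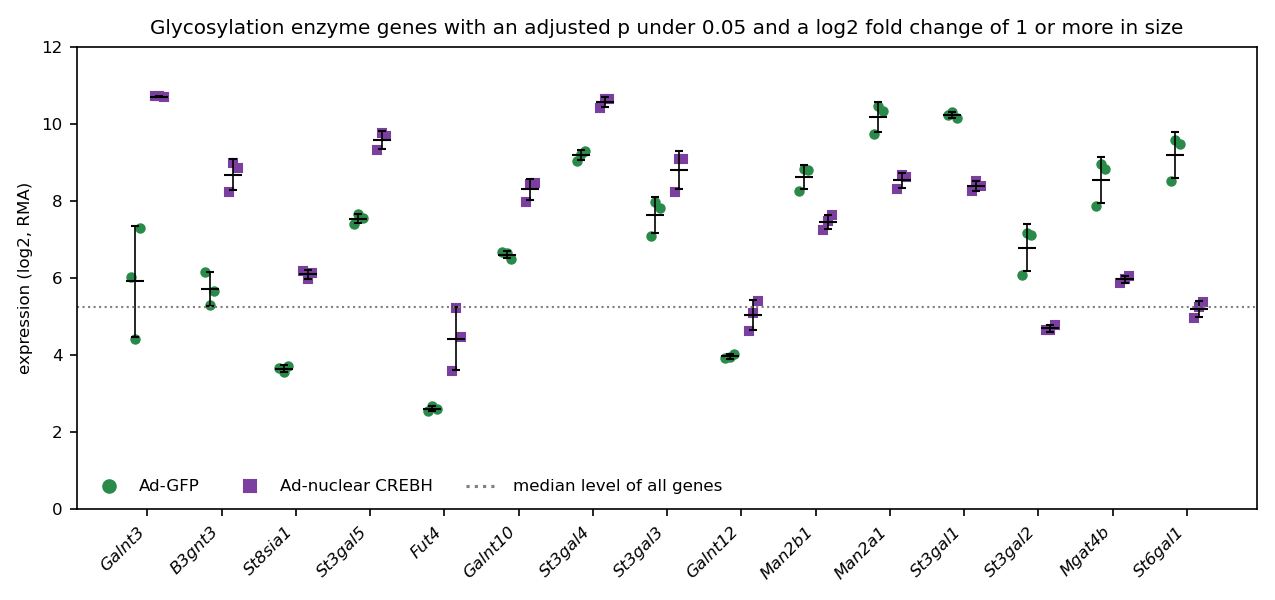
Expression (log2, RMA) on each array for the 15 genes with an adjusted p under 0.05 and a log2 fold change of 1 or more in size, with green circles for Ad-GFP and purple squares for Ad-nuclear CREBH dishes, with bars for mean ± SD (n = 3 dishes). The groups are separate for all 15 genes, which the choice by these thresholds on the same arrays makes likely. Of all genes, 49.4% had separate groups. Galnt3, with the widest Ad-GFP spread (4.42 to 7.29), is on the left and St6gal1 on the right, and the dotted line is the median level of all genes, 5.24.

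Pairs of related enzymes acting at the same kind of step were compared through the difference of their log2 values on each array. The exact two-sided permutation test of 3 dishes against 3 cannot go below p = 0.1, so that none of the 8 pairs could pass. The log2 fold change of St6gal1 was lower than that of St6gal2 by a difference of -3.96, and that of Mgat4a exceeded that of Mgat4b by 2.38, each at the smallest p the exact test allows (0.1, and 0.16 after Benjamini-Hochberg adjustment over the 8 pairs). Man1a minus Man1a2 (-0.75), Man2a1 minus Man2a2 (-0.72) and B4galt5 minus B4galt6 (0.50) had the same exact p. St6gal2 and Mgat4a lay below the median level of all genes, where a fall may not be visible, so that their pairs add nothing to the falls of St6gal1 and Mgat4b. For Galnt1 minus Galnt2 (-0.32, exact p = 0.4), Fut10 minus Fut11 (-0.38, exact p = 0.4) and St3gal3 minus St3gal4 (-0.20, exact p = 0.5) the dishes of the groups overlapped. The last of these differences lay between -0.40 and 0.01 with 1 array left out, so that its direction was not settled.

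These enzymes draw on activated sugars, and more of the listed genes that make them rose than fell. Of 25 measured genes of sugar nucleotide synthesis 12 rose and 3 fell (48% and 12%, against 19.2% and 18.2% of all genes), with a median log2 fold change of 0.40. Of the 23 above the median level 52.2% rose and 8.7% fell, against 29.3% and 29.2% of all genes above it. The list was made with earlier results of these data known, so that its counts only describe it. All 4 enzymes of the route from UDP-GlcNAc to CMP-sialic acid, the donor of every sialyltransferase above, were among the rises: Gne at 2.44 (SE 0.15, adjusted p = 2.31e-05), Nans at 1.02 (adjusted p = 0.000516), Nanp at 2.51 (adjusted p = 5.14e-05) and Cmas at 1.56 (adjusted p = 0.000181). Uxs1, which forms UDP-xylose, rose by 1.68 (adjusted p = 3.69e-05). In the opposite direction, Ugdh, which forms UDP-glucuronic acid, went from 11.31, 11.51 and 11.36 in Ad-GFP to 7.53, 7.69 and 7.69 in Ad-nuclear CREBH dishes, a fall by 3.76 (SE 0.11, adjusted p = 5.07e-06) between groups that were each very tight. Renbp, an epimerase of GlcNAc and ManNAc, fell by 1.29 (adjusted p = 0.00204) and the phosphomannomutase Pmm1 by 1.20 (adjusted p = 0.019; 0.0719 without Ad-nuclear CREBH replicate 3, and also lost without replicate 2). Ugp2, which makes UDP-glucose, was the brightest that did not pass, at 10.67 and 10.65 (adjusted p = 0.893).

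Transporters carry sugar donors and related nucleotides across ER or Golgi membranes. Of 14 listed genes 4 rose and 3 fell (28.6% and 21.4%, against 19.2% and 18.2% of all genes), with a median log2 fold change of 0.12. The 13 above the median level gave 30.8% and 23.1%, close to the 29.3% and 29.2% of all genes above it. Slc35c2 rose by 1.73 (adjusted p = 2.2e-05), the sulfate donor (PAPS) transporters Slc35b2 and Slc35b3 by 1.53 (adjusted p = 9.86e-05) and 1.13 (adjusted p = 0.00197), and Slc35a5 by 1.06 (adjusted p = 0.00067). Slc35a1, the transporter of CMP-sialic acid, fell by 0.70, from 7.11, 7.72 and 7.53 in Ad-GFP to 6.51, 6.81 and 6.94 in the other group (adjusted p = 0.0241). The groups were close, and this call was lost in 4 of the 6 fits that left out 1 array, with an adjusted p of up to 0.0906. It passed without Ad-GFP replicate 1 or Ad-nuclear CREBH replicate 3. Slc35d2 fell by 1.75 (adjusted p = 0.00233) and Slc35b1 by 0.87 (adjusted p = 0.000806), and Slc35d1 was at 8.80 and 8.92 (adjusted p = 0.754).

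Other enzymes of the Golgi apparatus outside the naming rule gave 12 rises and 5 falls among 41 measured genes, with a median log2 fold change of 0.13. These are 29.3% and 12.2%, against 19.2% and 18.2% of all genes. The 22 above the median level gave 45.5% and 22.7%, against 29.3% and 29.2% of all genes above it. The core 2 enzyme gene Gcnt4 rose by 3.38 (adjusted p = 2.06e-05), Chpf and Csgalnact2 of chondroitin synthesis by 2.18 (adjusted p = 5.58e-05) and 1.58 (adjusted p = 0.000102), and C1galt1, which forms core 1 on the GalNAc placed by the Galnt enzymes, by 1.16 (adjusted p = 0.000158). The largest falls were those of St6galnac6 (-1.40, adjusted p = 0.00968), Gnptab, which tags lysosomal enzymes with mannose 6-phosphate (-1.37, adjusted p = 0.00156), B4galnt1 (-0.95, adjusted p = 0.0223) and Xylt2, which starts proteoglycan chains (-0.84, adjusted p = 0.026). The calls of B4galnt1 and Xylt2 were lost without Ad-GFP replicates 2 or 3 or Ad-nuclear CREBH replicate 1, and that of Xylt2 also without Ad-nuclear CREBH replicate 3, at an adjusted p of up to 0.0776 and 0.0931. With the mean of all features of a gene, the call of B4galnt1 was lost as well. Ext1, of heparan sulfate synthesis, was at 10.01 and 10.02 (adjusted p = 0.975). In the ER, where N-glycans lose their glucose before they reach the mannosidases, 2 of 5 genes rose and 2 fell (40% each, against 19.2% and 18.2% of all genes). The glucosidase gene Mogs rose by 1.89 (adjusted p = 6.6e-05) and Prkcsh by 0.69 (adjusted p = 0.00131), the folding sensors Uggt2 and Uggt1 fell by 0.80 (adjusted p = 0.00665) and 0.69 (adjusted p = 0.00237), and Ganab was at 0.18 (adjusted p = 0.417).

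The plot along the routes of synthesis holds genes picked with their values known, so that it is an arrangement of values already given and no count over a route is drawn from it. On the O-glycan side, Galnt3, Galnt10, C1galt1 with its chaperone gene C1galt1c1 (0.95, adjusted p = 0.00243), Gcnt4 and B3gnt3 rose, and St3gal1 and St3gal2, which can cap core 1, fell. St3gal2 is placed on this side only, though its enzyme is not limited to O-glycans. On the ganglioside side, Ugcg, which forms the glucosylceramide base, rose by 1.03 (adjusted p = 0.00032), as did St3gal5 and St8sia1, whereas B4galnt1, which turns GM3 and GD3 toward complex gangliosides, fell. The call of B4galnt1 was lost in 4 alternative fits. B3galt4 of the next ganglioside step was at 0.10 (adjusted p = 0.552). On the N-glycan side, falls of Man2a1, Mgat4b and St6gal1 stood beside rises of B4galt3 and St3gal4, while Man1a2, Mgat1 and B4galt1 did not pass. These values are mRNA abundances, and no glycan was measured.

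**Figure D4:**
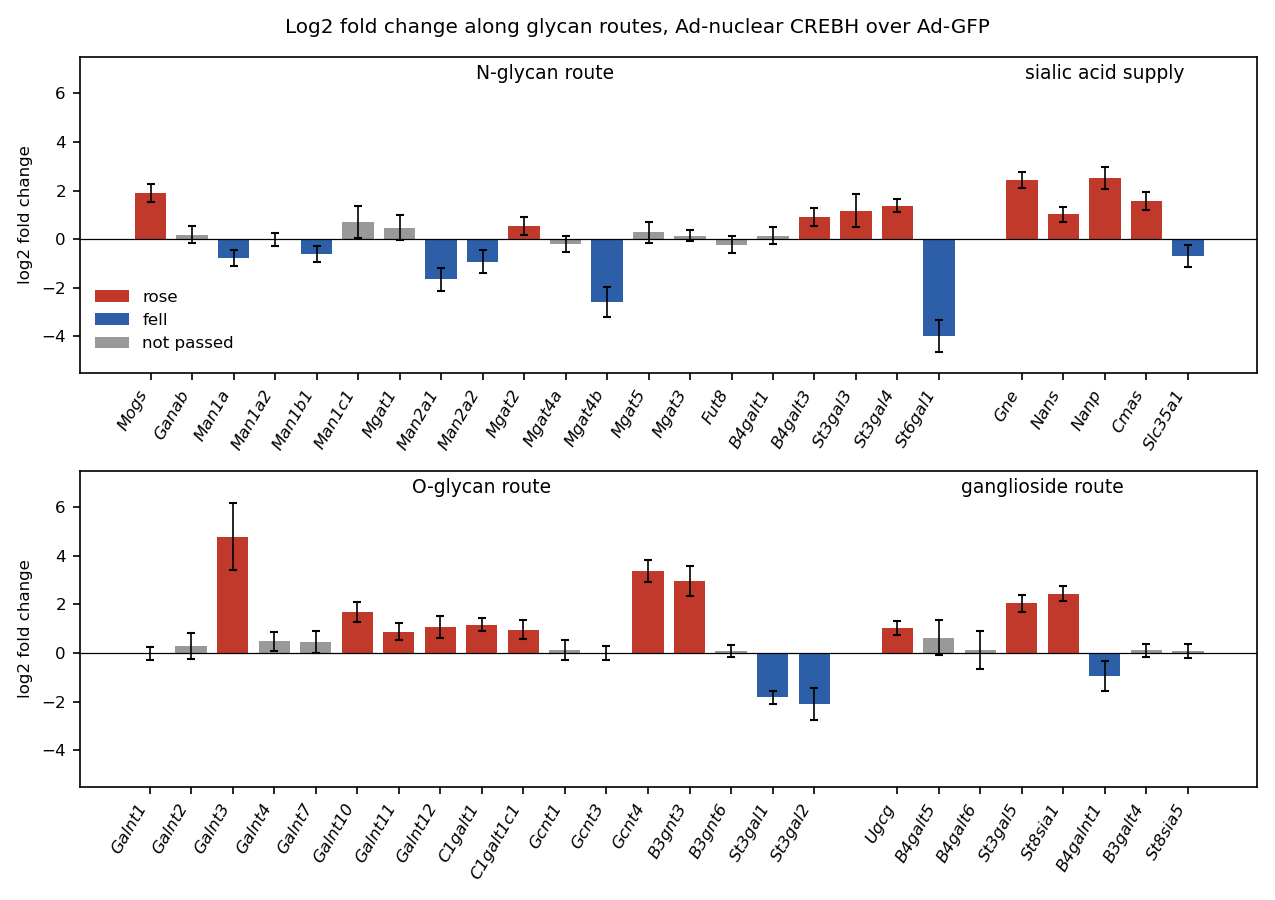
Log2 fold change, Ad-nuclear CREBH over Ad-GFP (bars, with 95% confidence intervals from limma, n = 3 dishes each), for genes placed in order along the N-glycan, O-glycan and ganglioside routes and the supply of sialic acid. Red bars rose, blue bars fell and grey bars did not pass. Each route holds both red and blue bars, such as Gne at 2.44 beside Slc35a1 at -0.70, and Galnt3 at 4.79 beside St3gal2 at -2.10.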

How the data were processed

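The values deposited by the authors are log2 intensities from RMA, in which background correction, between-array normalization and probe summarization are joined. RMA is named in the submitters' processing notes with no version, and array definition and build are not given in the sources used here. Methods and labels name different RNA purification and labeling kits. Of 35556 features, 21218 carried 1 gene symbol, 1881 several and 12457 none. For a gene with several features of 1 symbol the one with the highest mean was kept.

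Groups came from the sample labels. Models were fitted to all 18820 genes with limma 3.58.1 under R 4.3.3 (lmFit, then eBayes with a trend on intensity) for the difference between Ad-nuclear CREBH and Ad-GFP, on 4 residual degrees of freedom and 3.97 from the prior, with Benjamini-Hochberg adjustment over all genes. The SE, interval and p of a gene are from this fit. Members and gene lists were chosen with earlier results of these data known. Values on every array are given for members with an adjusted p under 0.05 and a log2 fold change of 1 or more in size, and for the brightest member of each role group that did not pass. Of each other list the up to 4 largest rises and falls and the brightest gene that did not pass are named, and Nans, C1galt1c1 and Ugcg were added after their values were seen. The fit was tested on simulated data with 50 genes altered by each fold: 14 were recovered at 1.5-fold, 29 at 2-fold, 46 at 4-fold and 49 at 8-fold, and 8 unchanged genes were called. No other genes of the 18820 were altered there, whereas 37.4% of genes passed in the data. The adjusted p depends on this share, so that the recovered counts do not carry over to the data. The alternatives tried were a prior without trend, weights for arrays, a block for the replicate number, other normalization, the mean of features, other thresholds and each array left out; leaving out both arrays numbered 1, and the methods' intensity-based moderated statistic for the fold and level thresholds, were added after the data were seen. Promoter windows came from RefSeq. Figures were drawn with matplotlib 3.10.9 in Python 3.11.15.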

Additional observations from a re-analysis of the deposited data

How the results depend on the processing

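Of the 29 genes that passed, 22 kept their call in every one of up to 16 alternative fits and 7 lost it in at least 1 (St3gal3, B3gnt5, B3gnt9, Mgat2, Galnt6, B3galt5 and Fut10); no call reversed, and 11 other genes passed in at least 1. With 1 array left out, 13 to 20 genes rose and 11 to 12 fell, the median log2 fold change was 0.08 to 0.14, and 4 to 5 genes met the methods' thresholds in each direction. Among the 35 genes above the median level, fitted and adjusted only with the other genes above it, 10 rose. In the main fit 9 of the 35 rose, and Galnt4 was gained (adjusted p = 0.0405). At an adjusted p under 0.01 in the main fit, 10 of the 74 genes rose. With each array centred on its median the median log2 fold change was 0.26. By the methods' thresholds 8 genes were up without an expression minimum, and 1 up and 2 down when both means had to exceed it. With array weights 24 genes rose. The replicate number as a block gave 18 rises and 13 falls, with Man2b2, B4galt5 and Galnt7 passing (adjusted p = 0.0414, 0.00637 and 0.0225) and B3gnt9 lost (0.0546). Over all genes the block called 7420 genes, against 7042 in the main fit. Deviations of same-numbered arrays correlated at 0.18, 0.07 and 0.14, and 4 of 6 arrays correlated best with their own number. These values do not settle whether the numbers pair the dishes, and the main fit did not use them. With both arrays numbered 1 left out, 23 genes rose and 13 fell. The 3 dishes of each group limit every value, and folds of dim genes can be understated.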

Other observations

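In 18 of the 35 genes above the median level (51.4%), replicate 1 was the lowest dish in both groups, as it was for 3188 of 9410 genes above that level (33.9%). Man2b2 and St3gal3 are examples. What set replicate 1 apart was not tested.

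A second, dimmer feature was present for Fut11, Galnt11, St3gal1 and St8sia5. For St3gal1 it lay at 4.54, 4.63 and 4.61 in Ad-GFP and 4.54, 4.67 and 4.27 in Ad-nuclear CREBH dishes (log2 fold change -0.10, adjusted p = 0.669 from limma over all features), below the median level of all genes, and did not show the fall of the brighter feature. For Galnt11 it was at 0.23 (adjusted p = 0.341), against 0.88 for the brighter one.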
